A study of Mus musculus with 6 samples.

Results

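The Schlafen family was followed through 6 mouse Clariom S arrays of RAW-D cells, a RAW264.7 macrophage subclone that forms osteoclasts readily. Its members were the probe sets whose annotated symbol is Slfn1, Slfn2, Slfn3, Slfn4, Slfn5, Slfn8 or Slfn9, with 1 probe set for each, so all 7 listed genes were found among the 19505 genes measured. The arrays held total RNA of Lpin2 KO clones #1 and #2 and of WT cells, each treated with LPS at 200 ng/mL for 4 h or left untreated. KO cells therefore had 2 arrays and WT cells 1 array per treatment. The KO lines were made from RAW-D cells with CRISPR/Cas9 KO and HDR plasmids, puromycin selection and isolation of single clones, so each KO line is 1 clone. Whether the WT cells went through the same steps is not stated in the labels or methods. Lpin2 encodes lipin2, a phosphatidate phosphatase, and LPS is the bacterial outer membrane component that TLR4 senses.

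Schlafen proteins are grouped by size. In the mouse, Slfn1 and Slfn2 encode short forms, Slfn3 and Slfn4 intermediate forms, and Slfn5, Slfn8 and Slfn9 long forms that carry a helicase-like domain in addition to the Schlafen core. Many of the genes are induced by type I interferon, which LPS-treated macrophages secrete and which acts on genes that carry a DNA element called ISRE. The family is known for holding immune cells in a quiescent state and, from human SLFN11, for cutting tRNA.

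The genes lie next to each other. In the RefSeq annotation of GRCm38.p6, 9 Schlafen genes fill chr11:82951349-83286726, a span of 335 kb with 20 annotated genes, in the order Slfn5, Slfn9, Slfn8, Slfn10-ps, Slfn2, Slfn1, Slfn4, Slfn3 and Slfn14. Slfnl1, a Schlafen-like gene, lies on chromosome 4. Slfn5os, a long noncoding RNA of the opposite strand, overlaps Slfn5, and other long noncoding RNAs overlap Slfn2 and Slfn1, and none of these had a probe set with a symbol. Probe sequences were not used here, so hybridization of 1 Schlafen transcript to the probes of another was not tested.

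The promoters ran from 250 bases before to 50 bases after a RefSeq start. Both strands were searched for the ISRE core GAAANNGAAA, the element GAS as TTCNNNGAA, the NF-κB site as GGGANNNNCC and the AP-1 site as TGANTCA. These were matched by 3.44%, 8.3%, 20.7% and 7.81% of 32851 mouse promoters. Of the 7 members, Slfn5, Slfn8 and Slfn9 held an ISRE core, which are the 3 long forms among the members, and Slfn1, Slfn2, Slfn3 and Slfn4 did not. Outside the members, the promoter of Slfn14 held none. The promoters below are shown because they set the members side by side: Slfn8 and Slfn9 as close copies whose KO minus WT differences were unlike, Slfn5 as the other gene with an ISRE core, and Slfn2 and Slfn4 as genes without one. Each runs 5′ to 3′ on the strand of its gene, and capitals mark the ISRE core in Slfn8, Slfn9 and Slfn5 and the run ACTTCCTGG in Slfn2 and Slfn4.
Slfn8 promoter, minus strand, chr11:83020761-83021060: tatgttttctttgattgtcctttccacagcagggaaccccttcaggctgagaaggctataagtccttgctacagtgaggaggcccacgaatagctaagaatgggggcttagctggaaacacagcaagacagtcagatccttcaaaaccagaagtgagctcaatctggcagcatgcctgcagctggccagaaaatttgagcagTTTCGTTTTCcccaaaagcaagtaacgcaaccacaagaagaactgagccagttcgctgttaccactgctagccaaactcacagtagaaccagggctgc
Slfn9 promoter, minus strand, chr11:82991781-82992080: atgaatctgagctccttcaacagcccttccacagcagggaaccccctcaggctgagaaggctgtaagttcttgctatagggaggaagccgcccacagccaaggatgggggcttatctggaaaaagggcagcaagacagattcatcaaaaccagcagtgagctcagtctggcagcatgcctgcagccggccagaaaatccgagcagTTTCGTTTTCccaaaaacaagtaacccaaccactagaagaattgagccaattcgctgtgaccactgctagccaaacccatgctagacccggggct
Slfn5 promoter, plus strand, chr11:82951852-82952151: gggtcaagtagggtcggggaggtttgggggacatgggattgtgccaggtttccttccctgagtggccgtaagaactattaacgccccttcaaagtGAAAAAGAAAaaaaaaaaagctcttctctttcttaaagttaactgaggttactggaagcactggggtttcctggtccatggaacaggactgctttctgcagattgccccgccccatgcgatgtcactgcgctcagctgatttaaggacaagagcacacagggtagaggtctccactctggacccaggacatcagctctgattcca
Slfn2 promoter, plus strand, chr11:83064862-83065161: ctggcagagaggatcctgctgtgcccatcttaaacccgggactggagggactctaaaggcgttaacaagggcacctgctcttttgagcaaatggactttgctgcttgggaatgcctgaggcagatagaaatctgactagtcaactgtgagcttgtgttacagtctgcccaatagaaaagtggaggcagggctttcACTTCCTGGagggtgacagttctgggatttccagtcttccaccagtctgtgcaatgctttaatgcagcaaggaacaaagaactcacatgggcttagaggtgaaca
Slfn4 promoter, plus strand, chr11:83174936-83175235: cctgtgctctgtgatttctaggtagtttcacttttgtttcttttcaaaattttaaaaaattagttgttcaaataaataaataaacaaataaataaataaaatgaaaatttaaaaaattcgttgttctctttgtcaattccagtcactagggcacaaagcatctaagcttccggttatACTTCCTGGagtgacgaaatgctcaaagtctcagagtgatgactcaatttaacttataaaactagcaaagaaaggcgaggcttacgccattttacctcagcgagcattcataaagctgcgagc

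In Slfn8 and Slfn9 the same 10 letters, GAAAACGAAA on the strand opposite to the gene, began 48 and 45 bases before the start. The Slfn8 and Slfn9 promoters were 80.8% identical, with 252 identical bases in 312 aligned columns. Every other pair of Schlafen promoters, a second Slfn8 start included, lay between 45.7% and 54.6%. The match in Slfn5, GAAAAAGAAA, began 155 bases before the start used for its window, in a run of A. That window begins at 82951852, past position 82951349, where the annotation above starts the gene. The Slfn4 window also uses a start other than the gene's. No window around the gene start of Slfn5 was searched. Slfn9 alone held an NF-κB match, GGGAACCCCC, which began 214 bases before the start, and of the members Slfn4 alone held an AP-1 match, TGACTCA, which began 34 bases before it. ACTTCCTGG, the longest run shared by the promoters of Slfn1 to Slfn4, was searched for after the sequences had been seen. It lay 74, 55, 42 and 73 bases before the start of Slfn1, Slfn2, Slfn3 and Slfn4, it occurred in 0.843% of mouse promoters on either strand, and none of the other Schlafen promoters held it. A match describes letters in this window and is not a binding site.

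The values were log2 signals that the authors made by RMA. A signal is called dim here when it did not exceed its array's own background limit, the 95th percentile of the negative controls, which lay between 9.12 and 9.45, and from 28.7% to 31.4% of genes exceeded it. Of the macrophage markers, 9 of 11 measured exceeded it on an array, as did 5 of 8 osteoclast markers, and all markers of lymphocytes, neutrophils, dendritic cells and fibroblasts or epithelium measured (6, 7, 6 and 8 genes) were dim on every array. Lpin2 was dim on all 6 arrays (with LPS, 7.52 and 7.98 in KO clones against 6.84 in WT cells) and could not serve as a check of the genotypes. The untreated WT array is labelled as a gene-level summary and the other 5 as exon-level summaries. Groups were compared with limma over all genes, and an adjusted p under 0.05 is the threshold throughout. All of the spread is that between the 2 clones (2 residual degrees of freedom), which was taken to hold for WT cells too. With 1 array set against 2, the smallest p of an exact permutation test is 0.333. Nothing in the labels says that the clones were cultured in separate experiments, so the p-values measure the spread between these arrays only.

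With LPS, 4 of the 7 members gave higher signals in KO cells: Slfn2 of the short forms, Slfn4 of the intermediate forms, and Slfn5 and Slfn8 of the long forms. Slfn1, Slfn3 and Slfn9 did not pass the test. Slfn2 and Slfn4, above background on every array, were 12.2-fold and 24.3-fold higher, and Slfn5 and Slfn8, dim in WT cells, at least 21.0-fold and 18.0-fold. Among all genes 4.62% were called higher in this comparison. The members' median difference was 3.61, also with dim groups set to their bound, against 0 over all genes. Both KO arrays exceeded the WT array for 5 of the 7 members, against 38.4% of all genes, and 5 members were over 2-fold higher, against 5.39%, or 4 without Slfn1, which was dim in both groups. With the methods' t-test in place of limma, 0 members and 0 of all genes passed after adjustment. In cultures measured in bulk, fewer cells with a transcript and less of it per cell cannot be told apart.

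**Figure D1:**
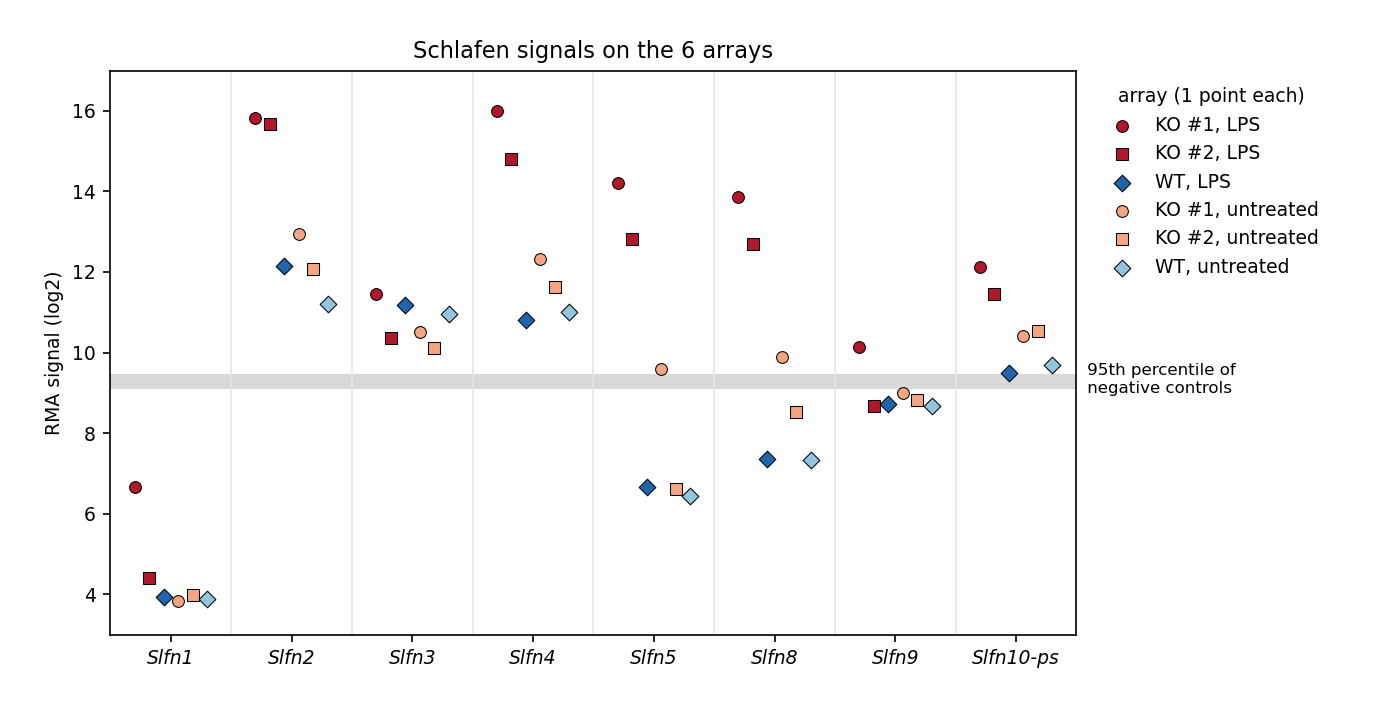
RMA log2 signal of the 7 Schlafen genes and Slfn10-ps on each of the 6 arrays, 1 point per array, with the range of the background limit over the arrays as a grey band. For Slfn2, Slfn4, Slfn5 and Slfn8 both KO arrays with LPS lie above all other arrays, while Slfn3 has no such gap and Slfn1 stays under the band.

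Slfn2, which T cells and monocytes need to stay quiescent, had signals of 15.81 and 15.68 in KO clones #1 and #2 with LPS, against 12.14 in WT cells with LPS. Without LPS it had 12.94 and 12.08 in KO cells and 11.20 in WT cells. Both KO arrays with LPS lay above every other array, and the 2 clones were almost level there. The difference with LPS was 3.61 (SE 0.36, 95% interval 2.72 to 4.49, adjusted p = 0.00311, limma), a 12.2-fold difference. Slfn1, the other short form, slows T cell growth when overexpressed and was dim on all 6 arrays. With LPS its signals were 6.65 and 4.40 in KO clones, against 3.93 in WT cells, and they lay between 3.82 and 3.98 on the untreated arrays. Only clone #1 with LPS stood apart from the rest, and the difference of 1.60 had an interval from -0.45 to 3.64 (adjusted p = 0.317).

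Slfn4, an intermediate form found mainly in myeloid cells, had 16.00 and 14.81 in KO cells with LPS and 10.80 in WT cells with LPS. The untreated arrays had 12.31 and 11.63 in KO cells and 11.01 in WT cells. The KO arrays with LPS did not overlap with any other, and the WT array with LPS was the lowest of the 6. The difference with LPS was 4.60 (SE 0.52, interval 3.32 to 5.89, adjusted p = 0.00475), or 24.3-fold. Slfn3, the other intermediate form, is known from the differentiation of gut epithelium and lies next to Slfn4 in the cluster. With LPS it had 11.46 and 10.36 in KO clones against 11.17 in WT cells, and 10.52 and 10.10 in KO cells and 10.96 in WT cells without it. It exceeded the background on all 6 arrays, and the WT signals lay among those of the KO clones with LPS. Its difference of -0.26 had an interval from -1.40 to 0.88 (adjusted p = 0.806).

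Slfn5 is a long form. Its signals were 14.20 and 12.81 in KO cells with LPS, against 6.66 in WT cells with LPS. Without LPS they were 9.58 and 6.62 in KO cells and 6.43 in WT cells. The gene was dim on both WT arrays and in untreated clone #2, and the KO arrays with LPS stood far above them. The difference was 6.85 (SE 1.19, interval 3.92 to 9.77, adjusted p = 0.0192). Measured against the background of the WT array, the mean of the KO clones was at least 21.0-fold higher. The p given with a lower bound belongs to the measured signals, including those that were dim, rather than to the bound itself.

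Slfn8, a long form, had 13.87 and 12.70 in KO cells and 7.35 in WT cells with LPS. The untreated signals were 9.89 and 8.53 in KO cells and 7.33 in WT cells. As with Slfn5, both WT arrays and untreated clone #2 were dim. The difference with LPS was 5.94 (SE 0.67, interval 4.30 to 7.58, adjusted p = 0.00461), and KO cells were at least 18.0-fold higher. Slfn9, whose promoter is the closest to that of Slfn8, had 10.13 and 8.66 in KO cells and 8.71 in WT cells with LPS. Its untreated signals were 9.0 and 8.81 in KO cells and 8.68 in WT cells. Slfn9 exceeded the background in clone #1 with LPS only, and the other 5 arrays lay between 8.66 and 9.0. The difference was 0.68 (interval -0.71 to 2.07, adjusted p = 0.545).

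Of the other Schlafen genes, Slfn10-ps, annotated as a noncoding transcript between Slfn8 and Slfn2, was higher in KO cells as well. It had 12.13 and 11.46 in KO cells and 9.50 in WT cells with LPS, a difference of 2.30 (SE 0.30, adjusted p = 0.00785) or 4.92-fold. Slfn14, at the far end of the cluster, and Slfnl1 were dim on all arrays, with differences of 0.25 (adjusted p = 0.604) and -0.26 (adjusted p = 0.491).

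**Figure D2:**
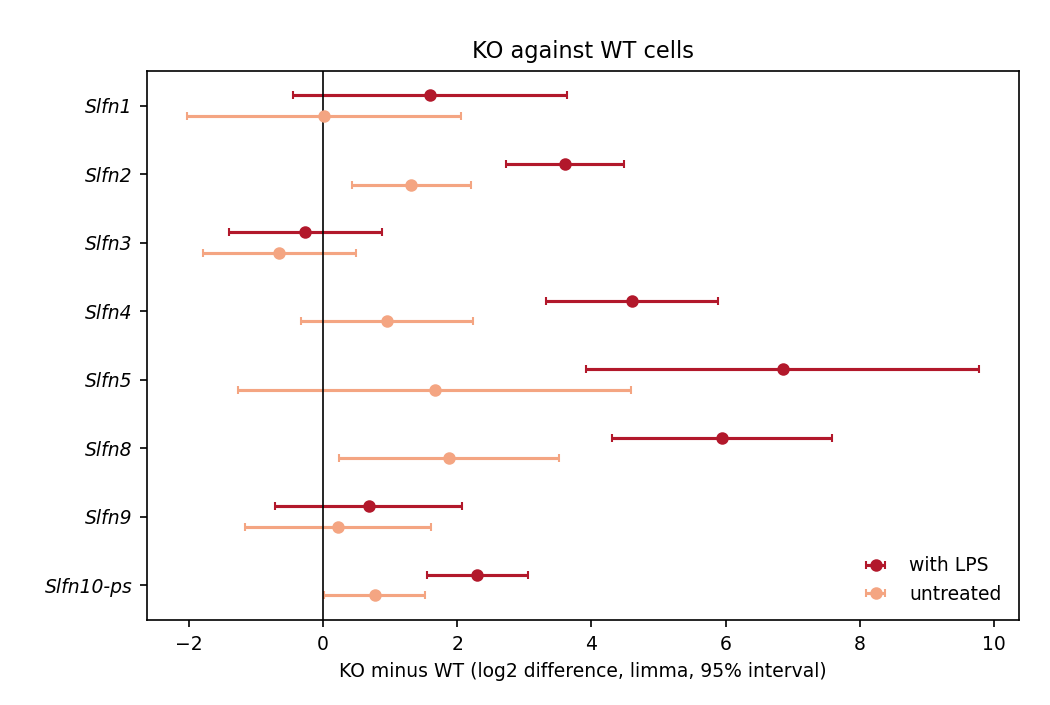
KO minus WT log2 difference of each Schlafen gene with its 95% interval from limma, with LPS (dark) and untreated (light). With LPS the intervals of Slfn2, Slfn4, Slfn5, Slfn8 and Slfn10-ps lie above 0, and those of Slfn1, Slfn3 and Slfn9 include it.

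The Schlafen genes that passed the test were not all next to each other. From the Slfn5 end, the differences with LPS ran 6.85 (Slfn5), 0.68 (Slfn9), 5.94 (Slfn8), 2.30 (Slfn10-ps), 3.61 (Slfn2), 1.60 (Slfn1), 4.60 (Slfn4), -0.26 (Slfn3) and 0.25 (Slfn14). The values of Slfn5 and Slfn8 are set against dim WT signals. Slfn9, which did not pass, lay between these 2 genes, which did. Slfn1 was dim on every array, and Slfn9 exceeded the background in clone #1 with LPS only. That they did not pass therefore does not show that they were unchanged. Of the genes that did not pass, Slfn3 alone was above background on all arrays, and it lay past Slfn4, the last that passed. Of the 8 nearest measured neighbours outside the cluster, 4 on each side, 7 did not pass the test and had differences from -0.20 (Rad51d) to 0.43 (Ap2b1, an adaptor subunit of clathrin coats). The exception was Fndc8, with a difference of 0.95 (adjusted p = 0.0304). Of the 8, only Nle1 and Ap2b1 exceeded the background on an array. Fndc8 and the rest were dim on every array, so their differences are between dim signals. Nle1 passed in 2 other limma comparisons, both with dim signals in untreated KO cells. It differed by -1.45 between untreated KO and WT cells (adjusted p = 0.0325) and rose by 1.53 with LPS in KO cells (adjusted p = 0.00444).

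**Figure D3:**
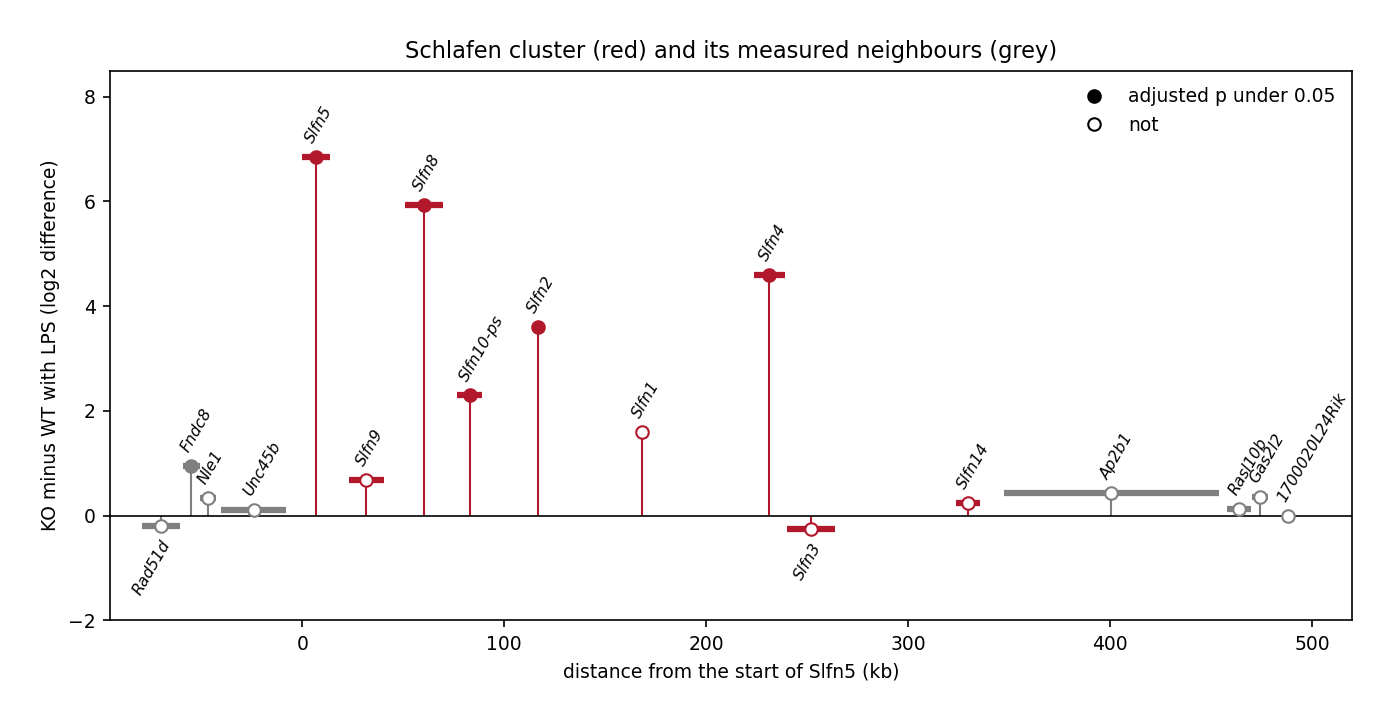
KO minus WT log2 difference with LPS of the Schlafen genes of the cluster (red) and of the 4 nearest measured genes on either side (grey), against the distance from the start of Slfn5 in kb; horizontal bars span the genes and filled points passed the test. Slfn5, Slfn8, Slfn10-ps, Slfn2 and Slfn4 are filled, Slfn9, Slfn1, Slfn3 and Slfn14 are not, and the neighbours stay between -0.20 and 0.95. Slfn1, Slfn14 and all neighbours but Nle1 and Ap2b1 were dim on every array.

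Without LPS, none of the 7 members passed the test between KO and WT cells, against 2.16% of all genes called higher, and 2 were under 0.05 before adjustment, as were 20.0% of all genes. These were Slfn2, with a difference of 1.31 (interval 0.43 to 2.20, adjusted p = 0.118), and Slfn8, with 1.88 (interval 0.24 to 3.52, adjusted p = 0.196). With the clone as a block, both passed (adjusted p = 0.0388 and 0.00419), against 3.54% of all genes called higher in that fit. Slfn8 was dim in untreated WT cells and clone #2. Its lower bound was 1.0-fold, so no excess over the background limit was shown. In this comparison the block removes what separates the clones from the error term, and variation from clone to clone is then not covered by the p. Slfn5 had a difference of 1.67 (interval -1.26 to 4.59), which was 3.14 for clone #1 and 0.19 for clone #2. Slfn4 had 0.96 (interval -0.33 to 2.24) and Slfn3 -0.65 (interval -1.78 to 0.49). Both untreated KO arrays exceeded the WT array for 5 of the 7 members, against 41.2% of all genes. These include Slfn9, dim on every untreated array, and Slfn5 and Slfn8, dim in WT cells and clone #2. The untreated WT array is the one with the other summary in its label, and the part of that in these values was not tested.

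Within KO cells, Slfn2, Slfn4, Slfn5 and Slfn8 also rose with LPS. Compared with untreated KO cells, Slfn2 was higher by 3.24 (SE 0.29, adjusted p = 0.00152), Slfn4 by 3.43 (SE 0.43, adjusted p = 0.00449), Slfn5 by 5.41 (SE 0.97, adjusted p = 0.0158) and Slfn8 by 4.08 (SE 0.54, adjusted p = 0.0057). Among all genes 6.84% were called higher. For Slfn5 and Slfn8 the untreated clone #2 was dim, so part of those values rests on signals that were not above background. Slfn10-ps rose by 1.32 (SE 0.25, adjusted p = 0.0186). Slfn1, Slfn3 and Slfn9 had differences of 1.62, 0.60 and 0.49 that did not pass (adjusted p = 0.19, 0.392 and 0.587).

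In WT cells no member passed the test, nor did any other gene, and none of the 7 was under 0.05 before adjustment, compared with 658 of all genes. Slfn2 had the largest difference of the members, 0.94 with an interval from -0.08 to 1.96, and the other 6 lay between -0.21 (Slfn4) and 0.23 (Slfn5). None of the members was over 2-fold higher with LPS in WT cells, against 0.436% of all genes. The WT array with LPS differed over 2-fold from the untreated one in 144 genes in all, while clones #1 and #2 did so in 2671 and 2281 genes. The untreated WT array carries the other summary label, and the part of that in these values was not tested.

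Slfn2, Slfn4, Slfn5 and Slfn8 were higher with LPS in both clones. In clones #1 and #2, Slfn2 differed by 2.87 and 3.60 between LPS and untreated, Slfn4 by 3.69 and 3.18, Slfn5 by 4.62 and 6.19 and Slfn8 by 3.99 and 4.17. For Slfn1, Slfn3 and Slfn9 the response of clone #1 was the greater, at 2.83, 0.94 and 1.13, while clone #2 had 0.42, 0.25 and -0.15. The difference between the KO and WT responses was 2.30 for Slfn2 (SE 0.51, adjusted p = 0.086), 3.65 for Slfn4 (SE 0.74, adjusted p = 0.0673), 5.18 for Slfn5 (SE 1.68, adjusted p = 0.203) and 4.06 for Slfn8 (SE 0.94, adjusted p = 0.0964). None of the 7 passed, against 1.43% of all genes called with a larger response in KO cells. In the fit with clones as blocks, all 4 passed (adjusted p = 0.0197, 0.00233, 0.00481 and 0.00115), against 2.63% of all genes. That fit has 1 residual degree of freedom, and the clones were measured in both treatments. With or without the block, the WT response rests on the untreated WT array with the other summary label.

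**Figure D4:**
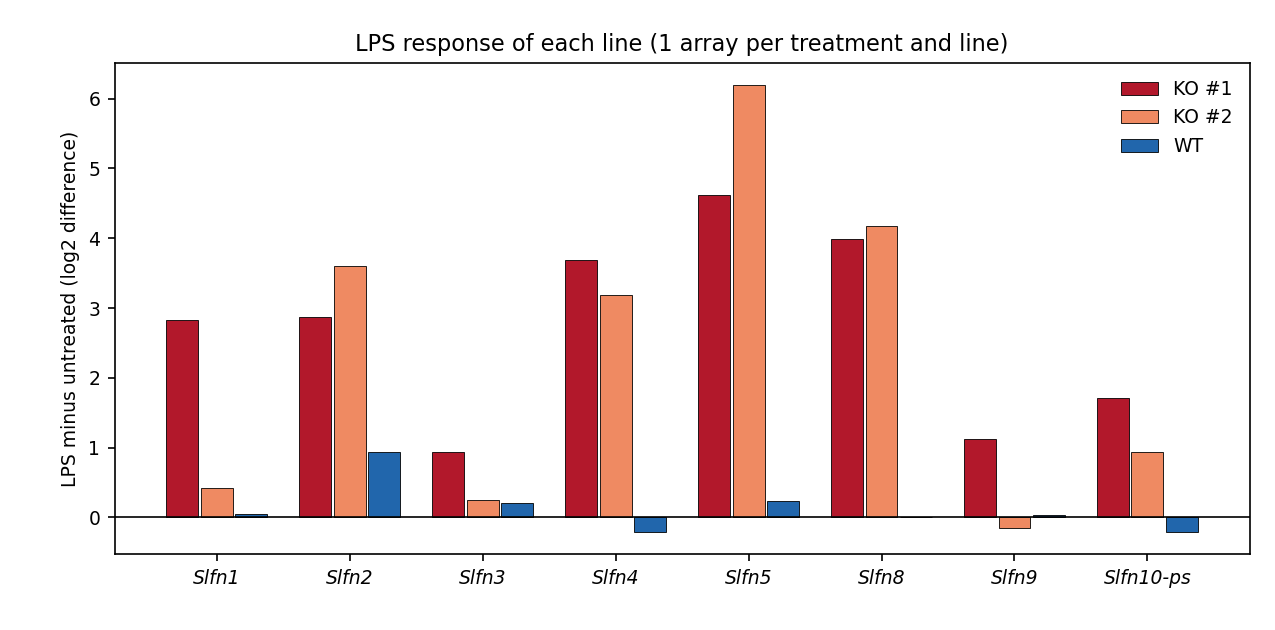
LPS minus untreated log2 difference in KO clones #1 and #2 and in WT cells for each Schlafen gene, 1 array per treatment and line. The clones rise by 2.87 or more for Slfn2, Slfn4, Slfn5 and Slfn8 while the WT bars stay under 1; for Slfn5 and Slfn8 the untreated clone #2 and both WT signals were dim.

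The clones differed in level. With LPS, clone #1 had over 2-fold more signal than clone #2 for 6 of the 7 members, against 1.56% of all genes. The differences were 1.10 for Slfn3, 1.17 for Slfn8, 1.19 for Slfn4, 1.39 for Slfn5, 1.47 for Slfn9 and 2.25 for Slfn1, which was dim in both clones. Slfn2 was the exception, with 0.13. Slfn9 was dim in clone #2, and against the background limit clone #1 was higher by 0.70 only. With dim signals raised to that limit, a setting chosen after seeing the data, 4 members stayed over 2-fold higher in clone #1, against 0.749% of all genes. Untreated, clone #1 was over 2-fold higher for 2 members, Slfn5 with 2.95 and Slfn8 with 1.35, against 0.713% of all genes. Both were dim in untreated clone #2, and with dim signals raised 0 members were over 2-fold higher, against 0.169% of all genes. When clone #2 with LPS was left out, Slfn1 and Slfn9 passed the test of KO against WT with LPS (differences of 2.72 and 1.42, adjusted p = 0.00146 and 0.0157). That fit sets 1 KO array against 1 WT array, takes its spread from the untreated clones alone, and for Slfn1 compares dim signals. Slfn9 was at -0.05 when clone #1 was left out. For Slfn2, Slfn4, Slfn5, Slfn8 and Slfn10-ps both clones with LPS had the highest signals of the 6 arrays.

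The same clone order was seen in interferon-stimulated genes, a list of 56 symbols without Schlafen members of which 52 were measured. Clone #1 exceeded clone #2 with LPS for 52 of the 52, by a median of 1.37, dim signals included. Over all genes the median of this difference was -0.03. In KO cells with LPS 39 of the 52 were higher than in WT cells and 0 were lower. Among all genes 4.62% were called higher and 6.66% lower. The median difference of the list was 5.68, or 3.53 with dim groups at their bound, against 0 over all genes. Among them, antiviral Ifit3, Ifit3b and Ifit1 were at least 94.0-fold, 69.3-fold and 39.9-fold higher (adjusted p = 0.00212, 0.00326 and 0.00179), and Trim30a at least 21.2-fold (adjusted p = 0.00985). The ISRE core that Slfn5, Slfn8 and Slfn9 hold was in the promoter of 24 of 43 listed genes with a promoter (55.8%), against 3.99% of 27025 mouse genes. This list, the lists below and the motifs were chosen with earlier results of these data known. Their counts therefore describe these arrays and are not an independent test.

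Of 18 measured genes of interferon signaling, 4 were higher in KO cells than in WT cells with LPS and 0 lower, against 4.62% of all genes called higher (7 with the clone as a block, 8 without clone #2 with LPS), with a median difference of 0.79, or 0.07 with dim groups at their bound. Stat2, a transcription factor of the type I interferon response, had 13.73 and 12.65 in KO cells and 7.64 in WT cells and was at least 16.8-fold higher (adjusted p = 0.0021). Irf1, an interferon-induced transcription factor, was at least 2.8-fold higher (adjusted p = 0.0197), and the kinase Jak2 differed by 2.12 (adjusted p = 0.0097). Socs1, which inhibits the pathway, passed with signals that were dim in both groups (difference 2.98, adjusted p = 0.04), and did not pass when either untreated KO array was left out (adjusted p = 0.085).

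Because Schlafen genes are known for growth arrest, cyclins and genes of growth arrest were also counted. Of 24 measured, 2 were higher and 11 lower in KO cells with LPS, against 6.66% of all genes called lower, with a median of -0.68, or -0.12 with dim groups at their bound. Cyclin A2 (Ccna2), which drives DNA replication, had 10.00 and 10.88 in KO cells and 14.57 in WT cells, a difference of -4.13 (adjusted p = 0.00271). E2f2 and E2f1, which switch on genes of DNA replication, were dim in KO cells and at least 1.99-fold and 1.05-fold lower there (adjusted p = 0.000669 and 0.00446). Btg1, an antiproliferative gene, was higher by 3.86 (adjusted p = 0.0033). It was also higher in untreated KO cells, by 2.30 (adjusted p = 0.0379), where Ccna2, E2f2 and E2f1 did not pass. Of 10 measured genes of tRNA cleavage and repair, 0 passed between KO and WT cells with LPS in limma (1 lower with an intensity trend), and 4 were under 0.05 before adjustment, as were 24.3% of all genes. Untreated, 2 of the 10 were lower in KO cells and 0 higher, against 418 lower and 422 higher of all 19505 genes.

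The members fell into different patterns over the 6 arrays. Likeness was the root mean square difference between mean-centred log2 signals, and 0 would be an identical pattern. Of the 3 members above background on all arrays, Slfn2 and Slfn4 were 0.486 apart, while Slfn3 was 1.79 from Slfn2 and 1.92 from Slfn4. Distances of Slfn5 and Slfn8, each dim on 3 arrays, rest in part on dim signals, and were 0.736 between the 2 and 0.628 between Slfn8 and Slfn4. Among 6702 genes outside the family above background on an array, those closest to Slfn8 were Ddx58 (0.141), which encodes the RNA sensor RIG-I, Parp14 (0.206), Phf11d (0.277) and Stat2 (0.292), which exceeded it on 4, 2, 3 and 3 arrays. Those closest to Slfn5 were the interferon-induced GTPases Irgm2 (0.27), Gvin1 (0.419) and Igtp (0.437) and the apoptosis factor Xaf1 (0.398), above background on 2, 2, 2 and 3 arrays. For each of these 2 members, 3 of the 4 genes stood in the interferon-stimulated list. That list had 52 measured genes, 3 of them dim on all arrays, beside the 6702 genes searched. Irgm2, Gvin1, Igtp and Parp14 exceeded the background in KO cells with LPS only, so they entered the search through those arrays.

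Slfn4 lay closest to Uba7 (0.169), which activates ISG15, to the peptide transporter Tap1 (0.185), to Traf5 (0.212) and to Sp110 (0.23), of which 1 stood in the list. Of these Tap1 alone was above background on all 6 arrays. Uba7 and Traf5 were so in clone #1 with LPS only, so their other values are dim, and Sp110 was so on 2 arrays. Uba7, Traf5 and Sp110 exceeded the background in KO cells with LPS only, so they too entered the search through those arrays. None of the 4 closest to Slfn2 stood in the list. They were the myeloid kinase Fgr (0.276), the cholesterol exporter Abca1 (0.282), Bcl2a1a (0.354), which protects from apoptosis, and the integrin Itgax (0.358). These were above background on 4, 2, 6 and 1 arrays. Abca1 and Itgax were so in KO cells with LPS only and entered the search through those arrays. Slfn2 and Fgr share almost level clones with LPS, at 15.81 and 15.68 for Slfn2 and at 13.04 and 13.06 for Fgr. Slfn3 was closest to Bud13 (0.147), Mier1 (0.18), Aida (0.187) and the DNA sensor Cgas (0.203), and Slfn9, itself dim on 5 arrays, to Keap1 (0.108), Pcgf5 (0.157), Rab22a (0.177) and Tut7 (0.216). Likeness over 6 arrays is a description only. Slfn1 was left out as it was dim throughout.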

How the data were processed

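Total RNA of 6 RAW-D cultures was hybridized to 6 mouse Clariom S arrays, from 100 ng per array. The deposited log2 values are RMA values that the authors made in Expression Console, whose version is not stated; RMA corrects background, sets the arrays to 1 distribution and summarizes probes. Of 28846 values per array, 22206 belonged to genes, 19572 of those had a symbol and 2634 had none. The probe set of highest mean stood for its symbol, which left 19505 genes. Groups followed the labels of genotype and treatment.

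Comparisons used limma 3.58.1 (R 4.3.3), two-sided, in a model with a mean for each group and moderated variances (residual degrees of freedom 2, prior 3.83). P-values were adjusted by Benjamini-Hochberg over all genes, with 0.05 as the threshold. The alternative with clone as a block had 1 residual and 5.76 prior degrees of freedom. Clone numbers pair the arrays, as each number is 1 clone in both treatments, and deviations from the group means correlated between treatments at 0.222 across all genes and at 0.447 across genes above background on an array. Against a dim group, a fold is a lower bound with the 95th percentile of the negative controls of that array in place of the signal. Other alternatives left out each KO array, normalized again, filtered dim genes, allowed an intensity trend or used the methods' t-test. That test is named in the methods without being tied to the arrays. The steps were tested on simulated data. Promoters came from RefSeq (GRCm38.p6) and matched all members. The members, lists, markers and motifs were chosen with earlier results of these data known. The named genes are the members, the other Schlafen genes, 4 neighbours per side, the 4 genes most like each member and up to 4 genes per list with the largest difference that passed. Probe sets without a symbol and the array images were not used here.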

Additional observations from a re-analysis of the deposited data

Results flagged for a closer look

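For 4 Schlafen genes the LPS response differed between KO and WT cells in the fit with the clone as a block. The KO response exceeded the WT response by 2.3 for Slfn2 (adjusted p = 0.0197, limma), 3.65 for Slfn4 (adjusted p = 0.00233), 5.18 for Slfn5 (adjusted p = 0.00481) and 4.06 for Slfn8 (adjusted p = 0.00115), all on the log2 scale. Without the block the adjusted p was 0.086, 0.0673, 0.203 and 0.0964. In both clones the response of each gene was larger than in WT cells. Slfn5 and Slfn8 were dim on both WT arrays, so their response in WT cells is a difference between signals under the background. For all 4 genes the WT response uses the untreated WT array, labelled with another summary than the rest, and the part of that was not tested.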

How the results depend on the processing

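With LPS, the 4 members called between KO and WT cells stayed 4 under every alternative but the methods' t-test, which called 0, and 4 to 6 with 1 KO array left out. Within KO cells the 4 became 0 with the t-test and 4 to 7 with 1 array left out, since Slfn1 (2.75), Slfn3 (1.15) and Slfn9 (1.23) passed without clone #2 with LPS. Untreated, 0 became 2 with the clone as a block and stayed 0 with any array left out. For the difference of responses, 0 became 4 with the block, 2 with an intensity trend and 0 to 3 with an array left out. WT cells gave 0 throughout. Over all genes, the calls with LPS were 2201 (t-test 0, 1535 to 2512 with an array left out), untreated 840 (block 1339, trend 1270, t-test 3, 214 to 1184), within KO cells 3246 (t-test 1, 1485 to 3064), within WT cells 0 (trend 1) and for the responses 641 (block 1078, 162 to 1175). Over 2-fold, 5 members (4 to 6) and 2405 genes (2254 to 2735) were counted, with 4723 genes at 1.5-fold, 898 at 4-fold and 1314 with dim signals raised to the background. Of 387 alternatives for single members 354 kept direction and side of the threshold, and 8 lost the call, all with the t-test. Direction turned for Slfn3 with LPS (-0.81 to 0.29 with an array left out), Slfn9 (-0.05 to 1.42 against WT, -0.25 to 1.23 against untreated, -0.28 to 1.19 for the responses), the Slfn3 response (-0.16 to 0.94) and untreated Slfn1 (-0.05 by quantile, -0.03 by median centring, -0.07 to 0.1 with an array left out). The causes were not tested. The block, which pairs the 2 arrays of a clone, changed no other call of a member. With 1 WT array per treatment, no WT array could be left out. Against dim WT signals the folds of Slfn5, Slfn8 and Slfn9 with LPS are lower bounds, while Slfn1 was dim in every group and has no bound.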
